A study of Arabidopsis thaliana with 12 samples.

Results

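Young rosette leaves of 2 Arabidopsis cuticle mutants, fdh and lcr, were compared directly with each other, without wild type between them. The comparison used the 3 arrays labelled fdh and the 3 labelled lcr, of 12 arrays in all, and covered 22746 probe sets. The fdh plants carried the allele fdh-3940 (named fdh-3940S1 in the study's methods), a 2-bp insertion in exon 1 of FDH, and the lcr plants carried lcr-3P77, a 1169-bp insertion in the 5′ untranslated region of LCR. Both are in the Columbia background, as are the wild-type and bdg plants that made up the other 6 arrays. All plants had grown on soil for 5.5 weeks in short days (8 h of light and 16 h of dark), and leaves between 2 mm and 1 cm long were harvested in 3 successive rounds, with 15 plants pooled for each sample. The labels do not say which replicate number belongs to which round, and each mutant is represented by a single allele.

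FDH encodes a putative β-ketoacyl-CoA synthase, the condensing enzyme of fatty acid elongation, and LCR encodes CYP86A8, a cytochrome P450 that hydroxylates the ω-end of fatty acids. Both act in the epidermis on the lipids from which the cuticle, the hydrophobic cover of the shoot, is built. Loss of either gene gives deformed leaves that fuse where their surfaces touch. No annotated probe set for FDH or LCR was used here, so the labels of the arrays were not checked through the mutated genes. A probe set without a gene name, 267377_at, was low in fdh alone and may read FDH itself, which was not tested. The genes of leaf photosynthesis LHCB4.1 and LHCB4.2 read above 13.6 on all 6 arrays, while the root gene EXPA7 and the meristem gene CLV3 read below 2.2.

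Values are log2 expression values, so that a difference of 1 is a 2-fold change, and differences are given as fdh minus lcr. A probe set is a group of short oligonucleotides that reads 1 transcript. The medians of the arrays lay between 4.56 and 4.70, and values below 4.56 were not shown to be above background. No detection call was used, so at background means below 4.56 in this text and nothing more. Correlations between an fdh and an lcr array ran from 0.974 to 0.991. Within fdh they ran from 0.982 to 0.996 and within lcr from 0.980 to 0.986. How alike the 2 genotypes are was not tested. By limma, fitted over all 12 arrays with Benjamini-Hochberg adjustment, 20 probe sets differed at an adjusted p under 0.05, which is 0.0879% of those tested. Of the 20, 12 were higher in fdh (0.0528%) and 8 were lower (0.0352%). The fdh and lcr arrays did not overlap for any of the 20, which selection by a small p largely brings about. Such separation occurred in 12.5% of all probe sets, with fdh above lcr in 5.36% and below it in 7.17%. Over all probe sets the median difference was -0.01, and 9093 of the 22746 differences were positive. At an unadjusted p under 0.05, 793 probe sets (3.49%) were higher in fdh and 991 (4.36%) were lower. Among those with differences above 1 on the log2 scale, 276 were higher in fdh and 122 were lower.

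**Figure D1:**
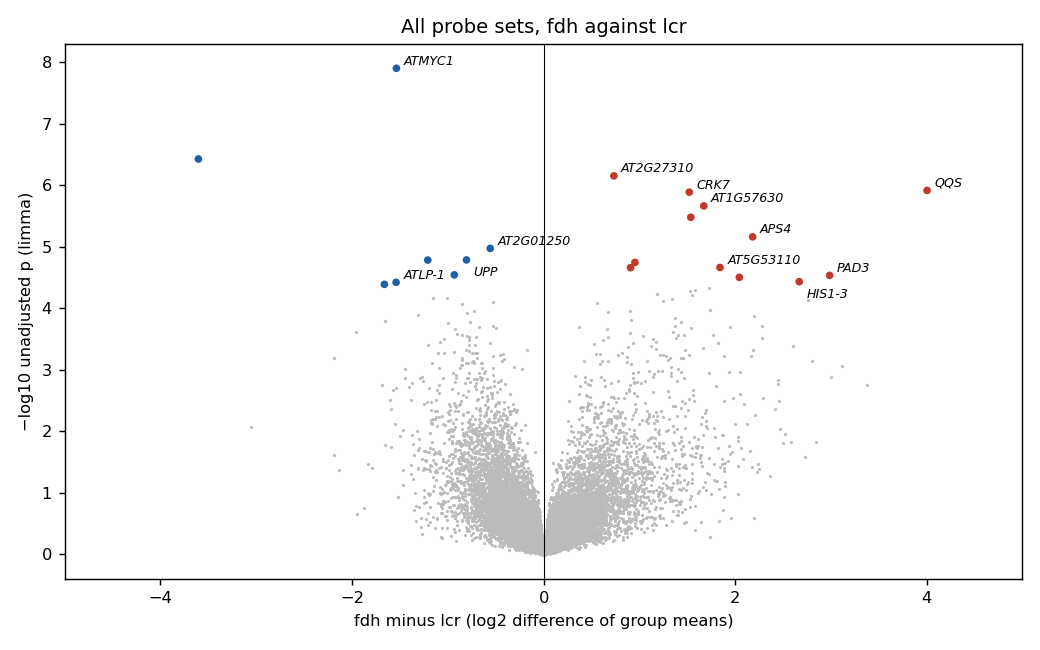
Each point is a probe set, with the difference between the fdh and lcr means (log2) on the horizontal axis and the −log10 of limma's unadjusted p on the vertical axis. The 20 coloured points passed an adjusted p of 0.05 (red, higher in fdh; blue, lower), and the 12 of them with a gene name are labelled, from QQS at 4.0 to ATLP-1 at -1.54.

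The numbered arrays of fdh and lcr deviated together from their group means, with correlations of 0.23, 0.39 and 0.62 for numbers 1, 2 and 3. Over the other pairs of groups these correlations ranged from -0.36 to 0.73, both between wild type and bdg (numbers 2 and 3). The block below covers all 12 arrays, and the numbers were not shown to mark the same round in every group. With the replicate number as a block in the model, 11 probe sets passed instead of 20 (0.0484% of those tested), of which 8 were among the 20. In a model of the 6 fdh and lcr arrays alone 0 passed limma, although 2189 had an unadjusted p under 0.05. Rank Product, the method the study used against wild type, took 161 probe sets as higher (0.708%) and 31 as lower (0.136%), and 13 of the 20 were among them. The array of fdh replicate 3 stood apart from its group: it correlated at 0.991 with lcr replicate 3 and at 0.982 and 0.984 with fdh replicates 1 and 2, which correlated with each other at 0.996. Without it, 158 probe sets passed, and all 20 were among them. Without 1 of the lcr arrays the count was 9, 8 or 13 (replicates 1, 2 and 3). It was 12 and 26 without fdh replicates 1 and 2, 16, 10 and 27 without wild type replicates 1, 2 and 3, and 12, 16 and 15 without bdg replicates 1, 2 and 3. The difference between the 3′ and 5′ actin probe sets, a measure of RNA integrity, was 1.02, 0.85 and 0.45 in fdh and 1.76, 1.20 and 0.70 in lcr, and its part in the results was tested only as a covariate, with which 50 probe sets passed and 18 of the 20 were among them.

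A gene could be named for 12 of the 20 probe sets, 10 through the array annotation and 2 through the study's own list of genes raised against wild type. The wild-type mean lay nearer to lcr than to fdh for 18 of the 20, against 52.9% of all probe sets. Against wild type, 493 probe sets passed in fdh (2.17%) and 91 in lcr (0.4%), and the tests share the wild-type arrays. Of the 20, 16 passed between fdh and wild type and 2 between lcr and wild type.

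The largest difference of all belonged to QQS (AT3G30720), a gene found only in Arabidopsis whose silencing raises leaf starch. Its values were 9.31, 8.78 and 9.67 in fdh and 4.60, 5.13 and 6.01 in lcr. The lowest fdh array thus lay 2.77 above the highest lcr array. QQS was 4.0 higher in fdh (SE 0.35), a 16.0-fold difference (limma adjusted p = 0.00587), and the wild-type mean of 5.19 ± 0.27 (SD, n = 3) was close to lcr (fdh minus wild type 4.06, lcr minus wild type 0.06). The other 6 starch genes with a probe set did not follow it past the threshold. APL3, a large subunit of ADP-glucose pyrophosphorylase, read 7.79, 7.38 and 7.97 in fdh and 5.05, 6.14 and 7.31 in lcr. These groups did not overlap either, but the lcr arrays were widely spread, and the difference of 1.55 (SE 0.75) had a limma adjusted p of 0.717. The branching enzyme SBE2.2 (-0.47), the disproportionating enzyme DPE1 (-0.30) and the phosphoglucan water dikinase PWD (-0.17) were slightly lower in fdh. The median of the 7 starch genes was 0.02.

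A gene of trichome initiation was lower in fdh. ATMYC1 (AT4G00480), a basic helix-loop-helix factor of trichome initiation, had the smallest p of the whole comparison. It read 4.74, 4.82 and 4.66 in fdh and 6.11, 6.34 and 6.38 in lcr, so that each group was tight and 1.29 separated the nearest arrays. The wild-type mean (6.18 ± 0.06, SD, n = 3) and the bdg mean (6.17 ± 0.09) lay with lcr. ATMYC1 was lower in fdh, with a difference of -1.54 (SE 0.08, 2.90-fold, limma adjusted p = 2.84e-04). For comparison, GIS, a zinc finger factor upstream of trichome initiation, read 5.20, 5.05 and 4.26 in fdh against 6.42, 6.06 and 5.58 in lcr, again without overlap. Its difference of -1.18 (SE 0.48) did not pass (limma adjusted p = 0.580), and both mutants were below the wild-type mean of 7.24. The other annotated members, the single-repeat MYB gene TRY (-0.49) and the cell cycle inhibitor gene SIM (-0.22), were lower in fdh too, with overlapping arrays. All 4 annotated members of the 19 trichome genes were thus lower, 1 of them past the threshold, with a median of -0.84. Among all 22746 probe sets, 9093 differences were positive and the median was -0.01. The fdh arrays lay below the lcr arrays without overlap, as for ATMYC1 and GIS, in 7.17% of them. Whether the 4 genes changed together was not tested. In whole leaves, fewer cells of a type and less RNA per cell cannot be told apart.

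**Figure D2:**
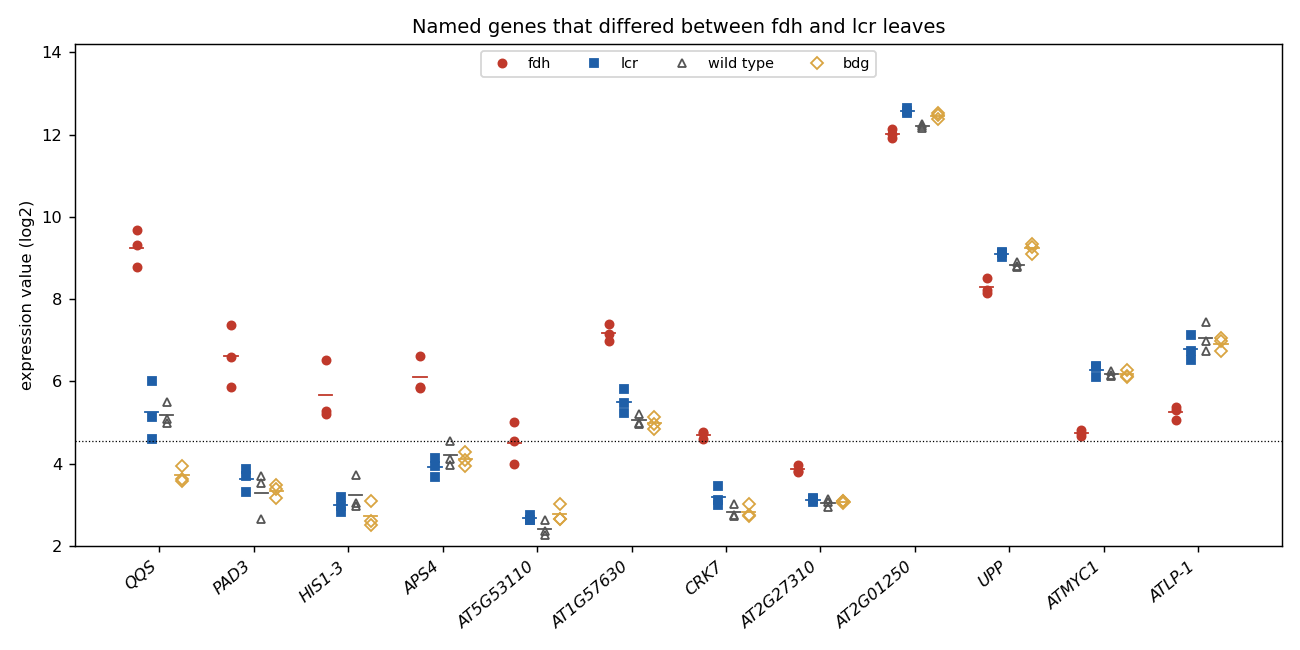
Log2 expression values of the 12 named genes that differed between fdh and lcr (limma adjusted p under 0.05), 1 symbol per array, with short lines at the group means and a dotted line at the lowest array median (4.56). In every gene the 3 fdh arrays lie apart from the 3 lcr arrays, as selection by a small p favours, and QQS shows the widest separation.

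Calls that are genes of defence against pathogens are described next. PAD3 and CRK7 were the 2 calls named through the study's list of raised genes, which was drawn from these same arrays. The study found more changed genes in fdh than in lcr. The list thus favours genes raised in a mutant, and may favour those of fdh most. Of the 235 probe sets named through it, 173 were higher in fdh than in lcr. Against wild type, PAD3 and CRK7 both passed limma in fdh and not in lcr. PAD3 (AT3G26830), the P450 that completes the synthesis of the phytoalexin camalexin, read 5.87, 6.60 and 7.38 in fdh and 3.31, 3.87 and 3.70 in lcr. Only the fdh arrays were above the array medians, as in the comparison with wild type (fdh minus wild type 3.32, lcr minus wild type 0.33). Since all lcr arrays read below 4.56, the difference of 2.99 (SE 0.39) depends on how the background was removed. It passed limma with an adjusted p of 0.0413. The only other annotated gene of the camalexin and tryptophan list, AT2G04400, encoding indole-3-glycerol phosphate synthase, differed by 0.09 (SE 0.43). CRK7 (AT4G23150), a cysteine-rich receptor-like kinase, read 4.61, 4.77 and 4.75 in fdh and 2.99, 3.46 and 3.11 in lcr. It was 1.52 higher in fdh (SE 0.13, limma adjusted p = 0.00587), although fdh itself was barely above 4.56. AT1G57630, a protein with the TIR domain of immune receptors, read 7.39, 7.16 and 6.98 in fdh and 5.81, 5.23 and 5.48 in lcr. This difference of 1.67 (SE 0.16, limma adjusted p = 0.00817) was the clearest of the defence genes, because all 6 arrays read above 4.56.

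None of the 5 annotated salicylic acid defence genes passed, although all 5 were higher in fdh, with a median of 2.03. GRX480, a glutaredoxin that binds TGA factors, came nearest, with 7.65, 6.91 and 6.33 in fdh and 4.56, 4.95 and 4.55 in lcr. Its difference was 2.28 (SE 0.38, limma adjusted p = 0.0873). BGL2, the β-1,3-glucanase also known as PR2, read 8.23, 7.93 and 9.0 in fdh and 3.70, 6.46 and 6.47 in lcr. For BGL2 lcr replicate 1 was far below the other lcr arrays, and the difference of 2.84 had an SE of 0.95 (limma adjusted p = 0.442). PR1 (2.03), EDS5 (0.90) and SAG101 (0.53) overlapped between the groups. The median of 2.03 is read beside a median of 0.73 over the 235 probe sets named through the study's list of raised genes, 3 of which are in this group. Those names favour genes that were raised in a mutant on these same arrays. Of the 235, 173 were higher in fdh than in lcr, and 59 had an unadjusted p under 0.05.

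Genes that respond quickly to touch and wounding were mostly higher in fdh. Of 11 annotated members 9 were higher, 4 of them at an unadjusted p under 0.05, and 0 passed the adjusted threshold of limma. The median was 1.26. Of the 11, 9 had been named through the study's list of raised genes, over which 173 of 235 were higher and the median was 0.73, and over all probe sets 3.49% were higher at that unadjusted p. Among the ethylene response factors ERF6 read 4.16, 6.11 and 4.03 in fdh and 2.65, 3.29 and 2.41 in lcr. ERF6 thus did not overlap, with a difference of 1.98 (SE 0.49, limma adjusted p = 0.235). For ERF104 (2.16), RRTF1 (2.25) and ERF5 (1.55) the groups overlapped, with fdh replicate 3 the lowest fdh array and lcr replicate 2 the highest lcr array. The zinc finger gene STZ showed the same arrangement, with 11.53, 11.60 and 9.93 in fdh and 8.43, 10.83 and 8.29 in lcr. RAP2.6 (-0.72) and its relative Rap2.6L (-0.26) were the members lower in fdh.

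The calmodulin-like, defensin and SWEET families were chosen after their values were seen. Of 8 calmodulin-like genes 6 were higher in fdh, led by CML37 with 6.07, 6.29 and 4.24 in fdh and 3.36, 4.03 and 2.94 in lcr. CML37 differed by 2.09 (SE 0.53, limma adjusted p = 0.264), and CML38 (1.32) and CML23 (1.13) overlapped. Of 10 plant defensins, small antifungal proteins, the jasmonate and ethylene marker PDF1.2b read 10.57, 9.12 and 9.97 in fdh and 6.91, 8.84 and 6.66 in lcr. Its near copy PDF1.2 read 9.25, 7.68 and 9.66 against 5.54, 8.25 and 6.27. Sequence shared by such copies may be read by either probe set, and neither difference passed (2.42 and 2.17, limma adjusted p = 0.288 and 0.587). The other 8 defensins differed by between -0.20 and 0.44. Among 16 SWEET sugar transporters, SWEET13 read 5.93, 5.14 and 4.92 in fdh and 2.98, 4.24 and 2.97 in lcr, a difference of 1.93 (SE 0.41, limma adjusted p = 0.155), while the other 15 lay between -0.42 and 0.27.

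Genes of nutrient assimilation and salvage were also among the calls. APS4 (AT5G43780), an ATP sulfurylase that activates sulfate, read 6.61, 5.86 and 5.85 in fdh and 3.68, 4.14 and 3.94 in lcr. Every lcr array was below 4.56, so the difference of 2.18 (SE 0.24, limma adjusted p = 0.0195) is one against values not shown to be above background. APS3, another ATP sulfurylase, and SIR, the sulfite reductase, differed by -0.01 and -0.19. UPP (AT3G53900), which salvages uracil, read 8.15, 8.23 and 8.50 in fdh and 9.13, 9.15 and 9.01 in lcr. UPP was lower in fdh by a small but regular step, with a difference of -0.81 (SE 0.10, limma adjusted p = 0.0338), and the wild-type arrays lay between the groups. FER1, the plastid iron store ferritin, was just outside the threshold with 12.54, 12.54 and 11.90 in fdh and 10.55, 10.52 and 10.71 in lcr (difference 1.73, SE 0.26, limma adjusted p = 0.0688). Of the other 4 iron and copper genes, none passed, CCS differed by 0.19, and AT1G47400 (-1.11) and PYE (-0.62), both induced by iron deficiency, had widely spread lcr arrays.

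HIS1-3 (AT2G18050), a linker histone induced by drought and abscisic acid, read 5.21, 5.27 and 6.52 in fdh and 2.84, 3.19 and 2.96 in lcr. The lcr arrays were at background like those of wild type and bdg, so no fold is given. The difference was 2.67 (SE 0.35, limma adjusted p = 0.0451). The 11 annotated dehydration and abscisic acid genes did not show this direction. They had a median of -0.57, with 9 lower and 2 higher in fdh, and 0 passed limma at either an adjusted or an unadjusted p under 0.05. LEA7, a late embryogenesis abundant protein, read 7.65, 8.51 and 9.50 in fdh and 9.87, 10.29 and 8.71 in lcr, with overlap (difference -1.07, SE 0.79). The dehydrin ERD10 (-0.71), the NAC factor RD26 (-0.69) and DREB2A (-0.63) were lower in fdh on arrays 1 and 2, and of these only ERD10 was lower on array 3. CBF2, a factor of cold acclimation, was the member with the largest difference upward (1.29, SE 0.66).

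ATLP-1 (AT1G18250), a thaumatin-like protein, and AT2G01250, a cytosolic ribosomal protein, were lower in fdh. ATLP-1 read 5.07, 5.39 and 5.30 in fdh and 7.12, 6.75 and 6.52 in lcr, a difference of -1.54 (SE 0.21, limma adjusted p = 0.0451). AT2G01250 was among the brightest probe sets, with 11.92, 12.13 and 12.02 in fdh and 12.65, 12.51 and 12.57 in lcr. Its difference of -0.56 (SE 0.06, limma adjusted p = 0.0267) was the smallest that passed. The wild-type arrays (12.21, 12.26 and 12.16) lay between the groups, above every fdh array and below every lcr array. The 2 remaining named calls read at or below background in most arrays. AT5G53110 read 4.56, 5.00 and 3.98 in fdh and 2.75, 2.64 and 2.63 in lcr (difference 1.84, SE 0.23, limma adjusted p = 0.0353). AT2G27310 read 3.81, 3.82 and 3.96 against 3.08, 3.16 and 3.15 (difference 0.73, SE 0.06, limma adjusted p = 0.00531).

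The remaining 8 calls have no gene name in the annotation used, 4 higher and 4 lower in fdh. The probe set 267377_at had the second largest difference of all 20, with 6.29, 5.94 and 6.24 in fdh and 9.72, 10.06 and 9.50 in lcr. It was lower in fdh, with a difference of -3.60 (SE 0.27, 12.2-fold, limma adjusted p = 0.00423), and wild type (10.05, 9.27 and 9.21) was as high as lcr. Probe sets with neighbouring numbers belong to genes close to FDH, AT2G26200 among them, so this call may be that of the mutated gene and not of a gene that responds to its loss. The probe set 258890_at read 7.45, 7.06 and 7.82 in fdh and 5.21, 5.13 and 5.85 in lcr (difference 2.04, SE 0.27, limma adjusted p = 0.0418), with the wild-type mean of 6.31 between them. The other 6 differed by between -1.66 and 1.54.

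Of the 13513 probe sets with 1 gene in the platform annotation, 274 did not pass but met 3 conditions. These were fdh and lcr arrays without overlap, an unadjusted limma p under 0.01 and a higher mean above 4.56. In fdh 123 of the 274 were higher and 151 lower. Over all probe sets the arrays did not overlap in 12.5%, and the share meeting all 3 conditions was not counted. The 10 largest differences each way are named as a description of what lies below the threshold. AT5G03380, whose product has a heavy-metal-associated domain, read 7.82, 8.22 and 7.04 in fdh and 5.46, 3.92 and 4.35 in lcr. Here lcr departed from the other genotypes, since wild type read 8.29, 8.97 and 7.03 (fdh minus lcr 3.12, SE 0.64, limma adjusted p = 0.136). AT1G76960 read 5.78, 5.63 and 6.47 in fdh and 2.08, 3.40 and 2.29 in lcr, with 5.10 in wild type replicate 3 and 2.27 and 2.13 in the other wild-type arrays. Its difference was the largest of the group (3.38, SE 0.77, limma adjusted p = 0.183). AT5G39670, an EF-hand protein, read 5.31, 6.43 and 5.47 in fdh and 2.71, 3.23 and 2.99 in lcr and was the nearest of these to passing (difference 2.76, SE 0.40, limma adjusted p = 0.0570). The others of this direction were AT4G27654 (3.0), AT2G36220 (2.80), WES1 (2.45), PDF1.2b (2.42), the lectin-domain gene AT5G18470 (2.29), the berberine bridge enzyme-like gene AT1G26420 (2.28) and GRX480 (2.28), with limma adjusted p between 0.0873 and 0.288.

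In the other direction, AUR2, an Aurora kinase of mitosis, read 3.47, 2.98 and 3.30 in fdh and 6.15, 5.74 and 4.44 in lcr. The fdh arrays were at background, and the difference was -2.19 (SE 0.43, limma adjusted p = 0.123). PRL, the MCM7 subunit of the replicative helicase, read 4.27, 4.62 and 5.33 against 6.15, 6.09 and 6.31 (difference -1.44, SE 0.32, limma adjusted p = 0.167). POLA3, the small primase subunit named after its value was seen, read 5.58, 5.66 and 6.03 against 7.11, 6.66 and 6.62 (difference -1.04, SE 0.20, limma adjusted p = 0.120). Of 10 annotated replication and mitosis genes, a list put together after the values were seen, 9 were lower in fdh, with a median of -0.28 and 0 past limma's threshold. ARR15, a cytokinin-induced response regulator, read 3.73, 3.86 and 4.82 in fdh and 6.02, 5.85 and 5.60 in lcr (difference -1.69, SE 0.39, limma adjusted p = 0.183). Its relative RR16 was lower by a difference of -1.09 (SE 0.39), and the other 4 annotated response regulators, all at background, differed by between -0.12 and 0.07. The lower genes also included AT4G02850 (-1.96), the amine oxidase gene AT1G31690 (-1.60), AT2G40010 (-1.58), the glycosyltransferase gene UGT76E12 (-1.47), the epoxide hydrolase gene AT3G05600 (-1.44), AT3G52110 (-1.41) and AT1G80280 (-1.32).

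**Figure D3:**
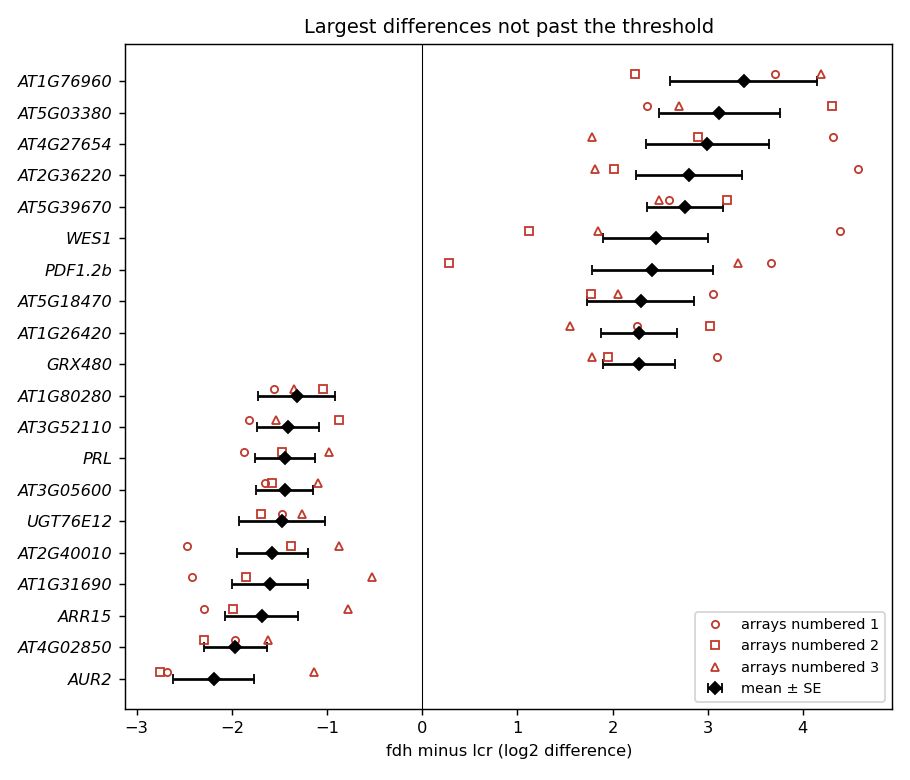
The 10 largest differences in each direction among annotated genes that did not pass the threshold. Diamonds give the difference of the fdh and lcr means (log2) with its SE from limma, open symbols the difference between arrays of the same replicate number; PDF1.2b shows the widest spread, with 0.28 for arrays numbered 2 and 3.67 for arrays numbered 1.

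Few genes of cuticle synthesis were annotated, and 0 of them passed limma's threshold. Wax synthesis was represented by 7 probe sets of 6 genes, of 24 in the list, with a median of 0.31. The 6 probe sets named through the study's list of raised genes had a median of 0.46 (0.73 over all 235 such probe sets). The 1 named by the platform differed by -0.17. The elongation enzyme KCS2 read 8.28, 7.83 and 7.63 in fdh and 7.57, 7.16 and 6.70 in lcr, against a wild-type mean of 4.27 (difference 0.77, SE 0.28, limma adjusted p = 0.522). MYB96, a regulator of wax synthesis, differed by 0.60, the aldehyde- and alkane-forming proteins CER3 and CER1 by 0.31 and by 0.85 and -0.01 on 2 probe sets, the reductase CER4 by 0.13 and the wax ester synthase WSD1 by -0.17. KCS12, the other named β-ketoacyl-CoA synthase of 21 in that list, read 8.07, 7.56 and 6.29 in fdh and 6.18, 6.26 and 5.42 in lcr (difference 1.35, SE 0.45, limma adjusted p = 0.442). The arrays did not overlap for either synthase, against 12.5% without overlap over all probe sets. Both synthases were named through the study's list of raised genes, over which 173 of 235 probe sets were higher in fdh. Of 19 cutin synthesis genes only AT4G24140 was annotated, at background on all arrays (-0.03).

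Of the lipid transfer proteins, small secreted proteins that bind lipids, 10 of 11 annotated members were higher in fdh. The 6 named through the study's list of raised genes had a median of 1.09 (0.73 over all 235 such probe sets), and the 5 named by the platform had a median of 0.29. The median of the 11 was 0.98, and 0 passed limma at an unadjusted p under 0.05. LTP2 read 13.82, 13.66 and 13.54 in fdh and 12.81, 12.89 and 13.06 in lcr, without overlap. LTP3 (1.15) and LTP4 (0.98) did not overlap either. AZI1 (1.14), EARLI1 (1.20) and AT4G12490 (1.53) did, since fdh replicate 3 lay within the lcr range. The SE from limma also takes in the spread of the other groups. For LTP2 (SE 0.93) the SD was 0.14 in fdh, 0.12 in lcr and 2.39 in wild type. The wild-type SD was 3.21 for LTP3 and 2.66 for LTP4.

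In the other lists the groups overlapped for most genes, and 0 members passed limma's adjusted threshold. Sugar transport and starvation had 9 annotated members with a median of 0.62. Of these, 3 were higher in fdh at an unadjusted limma p under 0.05, against 3.49% of all probe sets. Those 3 were among 7 members named through the study's list of raised genes. The 7 had a median of 0.73, equal to that over all 235 such probe sets, and the 2 named by the platform had a median of 0.10. The hexose transporter MSS1, also known as STP13, read 7.93, 7.85 and 8.29 in fdh and 6.39, 6.64 and 6.33 in lcr (difference 1.57, SE 0.39, limma adjusted p = 0.254). The asparagine synthetase ASN1 (1.10) was also without overlap, and SIP2 (0.98) and the transporter STP4 (0.73) overlapped. The 7 senescence markers had a median of 0.48, led by SAG13 with 6.57, 5.25 and 6.70 in fdh and 4.51, 4.65 and 4.52 in lcr (difference 1.61, SE 0.53, limma adjusted p = 0.429), and the NAC factor NAP differed by 1.47 with overlap, while SAG29 was at background on all arrays. Of 8 auxin genes (median 0.31), the amido synthetase WES1 read 7.61, 7.01 and 6.56 in fdh and 3.23, 5.89 and 4.71 in lcr (difference 2.45, SE 0.55, limma adjusted p = 0.178), IAA29 (1.70) and GH3.3 (1.40) overlapped, as did DFL1 (0.61), and the other 4 differed by 0.01 at most. In cell wall remodelling, 10 of 16 members were higher in fdh, with a median of 0.36. There PELPK1 had the largest difference (1.88, SE 1.31), with overlapping arrays. The glycine-rich protein GRP5 (1.24) and the expansin EXPA8 (1.80) were higher without overlap, and XTH33 (-0.92) and XTR6 (-0.82), enzymes that cut and join xyloglucan, were lower with overlap. Of 8 jasmonate genes (median 0.25) the largest differences were those of PDF1.2, given above, and CORI3 (0.88, SE 1.33). The repressor genes JAZ1 (0.35), JAZ5 (-0.16), JAZ7 (-0.13) and JAZ10 (-0.13) overlapped.

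**Figure D4:**
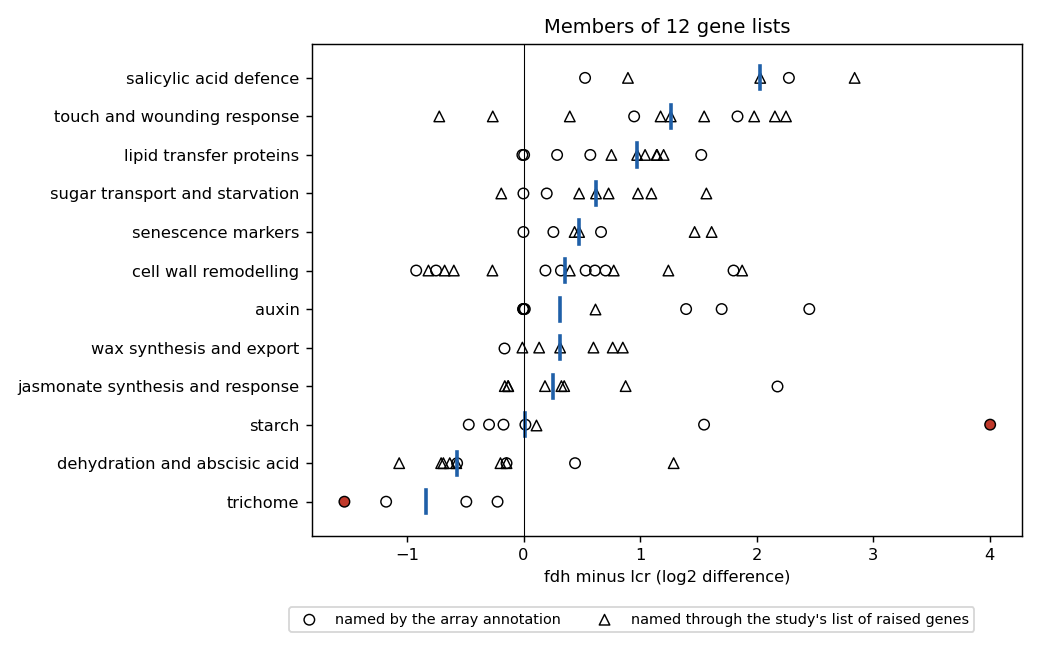
Differences between fdh and lcr means (log2) of the annotated members of 12 gene lists, ordered by the median, which is the blue line. Filled red symbols passed limma's threshold (QQS and ATMYC1); circles were named by the array annotation and triangles through the study's list of genes raised in a mutant, a choice that favours positive values (median 0.73 over 235 probe sets).

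Several lists had few annotated members. Flavonoid synthesis (4 members, median 0.99) was led by the reductase gene DFR, with 5.29, 2.31 and 4.07 in fdh and 3.17, 2.06 and 2.43 in lcr, and glucosinolate synthesis (2 members, median 1.38) by the aminotransferase gene BCAT4, with 5.67, 5.44 and 7.36 against 2.30, 4.73 and 4.35 (difference 2.36, SE 1.06, limma adjusted p = 0.650). Neither passed, nor did AT4G14090 (1.13) or UF3GT (0.86) of the flavonoid list. The clock (3 members, median -0.35, led by GI at -0.67), heat shock (2 members, median -0.12) and photosynthesis (2 members, median 0.19) showed no member past the threshold. Phosphate starvation, the vascular, floral and cell division markers had 0 annotated members. Of the stomatal lineage markers, SPCH, the factor that starts the lineage, read 5.07, 5.14 and 5.21 in fdh and 5.63, 6.12 and 5.82 in lcr (difference -0.72, SE 0.14, limma adjusted p = 0.120). MUTE (-0.50) and FMA (0.23), which act later in it, overlapped. Of the epidermal markers, the receptor gene CR4 differed by -0.25 and GRP5 by 1.24, and the root gene PYK10, below 4.56 on all arrays, by -0.37.

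The study's list of genes changed in all 3 mutants was nearly complete, with 86 of 89 genes, and was chosen on these samples. Of these, 0 passed limma between fdh and lcr, and the median was 0.32. At an unadjusted limma p under 0.05, 7 were higher and 1 lower, against 3.49% and 4.36% of all probe sets. The 51 named through the study's list of raised genes had a median of 0.34 (0.73 over all 235 such probe sets). The 35 named by the platform had a median of 0.25. PELPK1 had the largest difference (1.88, SE 1.31), and AT3G46280 differed by 1.78 (SE 0.84). The metallothionein gene MT1C was the lower one, with 10.29, 10.69 and 10.61 in fdh and 12.54, 12.17 and 11.04 in lcr (difference -1.39, SE 0.56, limma adjusted p = 0.572). Families were also taken by the start of the annotated symbol, which leaves out members with other names, such as the P450 gene PAD3 and the bHLH gene ATMYC1. Among these, 0 passed in 26 CYP genes (median -0.01), 47 UGT genes (0.00), 14 GST genes (-0.01), 14 expansin genes (0.03) and 9 XTH genes (-0.07). Nor did any of 6 WRKY genes, which had a median of 0.56 and WRKY47 (1.05) as the largest difference, or of 4 bHLH genes (-0.18), led by bHLH34 (-0.64). UGT72E1, which glucosylates monolignols, read 7.86, 7.67 and 8.13 in fdh and 5.44, 5.54 and 6.59 in lcr (difference 2.03, SE 0.67, limma adjusted p = 0.434). CYP71B23 read 8.48, 8.00 and 7.56 against 6.37, 6.71 and 5.86 (difference 1.70, SE 0.49, limma adjusted p = 0.338). The ERF, ABC transporter and LTP families matched 0 symbols by their strict names, and the MYB, NAC and PR families 1 each (MYBC1 at 1.00, NAC014 at -0.16 and PR-1-LIKE at -0.63).

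The calls differed in how far they rested on single arrays. ATMYC1, QQS, CRK7, AT1G57630, AT2G27310 and 267377_at passed limma with each of the 12 arrays left out in turn and also with the replicate block. PAD3 passed with the block (adjusted p = 0.0231), but its call ended without any one of wild type replicates 2 and 3, bdg replicates 1, 2 and 3, fdh replicate 2 and lcr replicates 1, 2 and 3 (adjusted p between 0.0524 and 0.160). APS4 lost its call without lcr replicate 1, 2 or 3 (adjusted p = 0.0994, 0.0551 and 0.0595) and with the block (0.0595). AT2G01250 lost it without wild type replicate 2, fdh replicate 1 or any lcr replicate (0.0506 to 0.118) and with the block (0.0615). UPP kept it only without wild type replicate 3, bdg replicate 2 or fdh replicate 3 (0.0523 to 0.137 without each other array), AT5G53110 only without wild type replicate 3, fdh replicate 2 or fdh replicate 3 (0.0547 to 0.137), HIS1-3 only without wild type replicate 3 or fdh replicate 3 (0.0547 to 0.172) and ATLP-1 only without wild type replicate 1, wild type replicate 3 or fdh replicate 3 (0.0547 to 0.172). With the block these 4 had adjusted p of 0.0615, 0.0751, 0.0700 and 0.0751. The call of 258890_at held with the block (0.0125) and ended without wild type replicate 1 or 2, any bdg replicate, fdh replicate 1 or lcr replicate 1 or 2 (0.0547 to 0.161). The other 6 unnamed calls ended with the block (0.0586 to 0.0839).

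The position of the genes was looked at after the values were seen. Within 60 genes on each side of FDH, 60 probe sets were annotated, and 6 were higher and 6 lower at an unadjusted p under 0.05, against 2 and 2 of 47 around LCR. Over all probe sets the share was 7.84%. On the side of FDH with the lower gene numbers 4 successive annotated genes were lower in fdh, namely AT2G25800 (-1.04, SE 0.18), AT2G25830 (-0.95, SE 0.27), AT2G25870 (-1.21 and -0.50 on its 2 probe sets) and AUR2 (-2.19), with limma adjusted p between 0.0996 and 0.830. The annotated genes nearest to FDH on the same side, AT2G26240 (0.38) and AT2G26210 (0.62), had overlapping arrays.

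**Figure D5:**
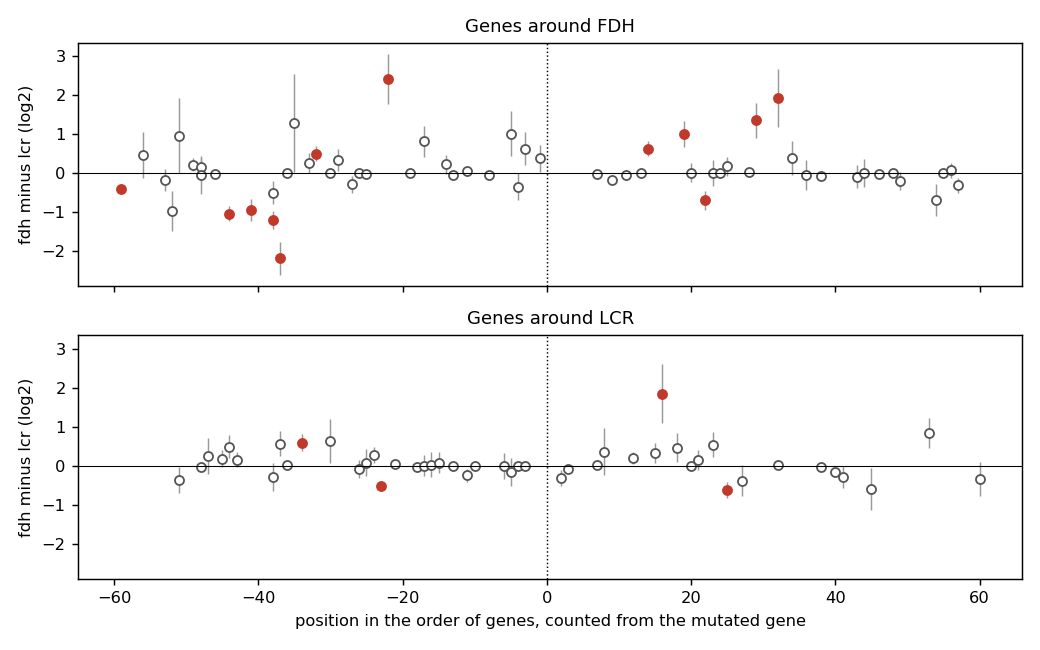
Difference between fdh and lcr (log2, bars SE) of annotated probe sets within 60 genes on each side of FDH (upper panel) and LCR (lower panel), by their place in the order of genes; red points have an unadjusted p under 0.05. The red points left of FDH from -44 to -37 are AT2G25800, AT2G25830, AT2G25870 and AUR2, between -0.95 and -2.19.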

How the data were processed

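RNA of young rosette leaves from wild type, bdg, fdh and lcr was measured on ATH1 arrays, 3 per genotype. The authors deposited log2 expression values per probe set. They used GCRMA, whose version is not given in the sources used here, to remove background, put the arrays on a common scale and combine the probes of a set. Differences of faint genes depend on that background step. The 64 control probe sets were left out. The precision is set by the 3 arrays per group, since an array has no depth of reads. No filter on low values was used.

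All 12 arrays entered a limma 3.58.1 model (R 4.3.3) with 4 group means, and fdh minus lcr was tested with Benjamini-Hochberg adjustment at 0.05. All groups shared the estimate of the spread (8 residual and 0.97 prior degrees of freedom). The script was tested on simulated data. Whether samples with the same replicate number pair was checked by the correlation of their deviations from the group means. It was 0.23, 0.39 and 0.62 for fdh and lcr (numbers 1, 2 and 3). Between wild type and bdg it was -0.22, -0.36 and 0.73. The pairing rests on the fdh and lcr values and on labels that name 3 harvest rounds without numbering them. Values against wild type come from the same model and share its 3 wild-type arrays.

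The platform annotation gave 1 gene for 13513 probe sets (13436 matched to RefSeq by gene ID), several for 503 and none for 8730. The study's table of raised genes, which lists entries both by gene and by probe set, named 235 more; where both sources named a probe set (200), the gene was the same for 200. Named are the calls with 1 gene, the 10 largest differences each way among annotated genes with separate arrays, an unadjusted p under 0.01 and a higher mean above the lowest array median, and in each list the members past the threshold or up to 4 with the largest difference. Further members were named for their role or family after their values were seen (LTP2, LTP4, XTR6, the JAZ genes and others). In families taken by symbol, fewer than 4 are named. Members and lists were chosen with earlier results of these data known. Lists are described by counts and medians, without a set test. Gene order came from the RefSeq table of assembly TAIR10.1. Alternatives were a filter at a log2 value of 5 on 3 arrays, a second quantile normalization, median centring, a replicate block, only the 6 arrays compared, a variance trend, robust fitting, array weights, a limit of 1 on the difference, Rank Product (9 ratios, 100 permutations, pfp under 0.05), an actin 3′ to 5′ covariate and left-out arrays.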

Additional observations from a re-analysis of the deposited data

Results flagged for a closer look

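AT2G01250, the cytosolic ribosomal protein, was marked because its 3 fdh arrays lay below and its 3 lcr arrays above all 3 wild-type arrays, with a difference of -0.56 that passed the direct limma test (adjusted p = 0.0267). UPP, the uracil salvage enzyme, was marked for the same arrangement, with a difference of -0.81 (adjusted p = 0.0338). Of all 22746 probe sets 28 showed it, and of the 32 named by the rule 2 did. The separate differences from wild type were -0.19 (fdh) and 0.37 (lcr) for AT2G01250 and -0.54 and 0.26 for UPP, and both mutants share the wild-type arrays.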

How the results depend on the processing

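The counts of 12 higher and 8 lower probe sets moved with the processing. They were 22 and 11 with arrays centred on their median, 20 and 6 with a variance trend, 137 and 137 with array weights, 161 and 31 by Rank Product and 25 and 25 with the actin covariate. With the low filter 10 and 5 passed, and with a difference of at least 1 on the log2 scale 9 and 5. With the replicate block, which uses the pairing by number, 7 and 4 passed. With only the 6 fdh and lcr arrays 0 and 0 passed limma (2189 at an unadjusted p under 0.05), and 0 and 0 when these were blocked (2804), a setting chosen after seeing the data like the one without fdh and lcr replicates 3 (44 and 18). Leaving out each array in turn gave 4 to 106 higher and 2 to 52 lower. The counts stayed within 1.5 times of 12 and 8 in the other settings. Across the settings 0 of the named genes changed sign. Over all 20 called probe sets, with or without a gene name, calls were lost 211 times and kept 306 times. A named gene below the threshold passed 54 times. The cause of these changes was not tested.

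The number of arrays and the signal over background limit what could pass. At the median SE of 0.19 a difference of 1.44 would have been needed to reach the smallest ratio of difference to SE among the calls, 7.43.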

Other observations

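Some neighbouring genes had like differences, and these were picked after the values were seen. AT4G27652, AT4G27654 and AT4G27657, which lie close together, were higher in fdh by 2.12 (SE 0.62), 3.0 (SE 0.65) and 1.88 (SE 0.47), with limma adjusted p of 0.351, 0.167 and 0.255. AT1G72900 and AT1G72940 were higher by 2.00 (SE 0.59) and 1.71 (SE 0.51), with limma adjusted p of 0.351 and 0.367. Genes that lie close together and are alike in sequence may share signal between probe sets.

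Further genes named through the study's list of raised genes had separate fdh and lcr arrays without passing. The glucanase gene BG3 read 2.60 higher in fdh (SE 0.48, limma adjusted p = 0.110), the glutathione transferase gene GSTU4 2.17 higher (SE 0.42, 0.120) and AT1G80440 1.95 higher (SE 0.32, 0.0873). AT2G32160, chosen after its value was seen, was 1.25 higher in fdh (SE 0.18, limma adjusted p = 0.0570). With the replicate block, AT1G23840 (0.93), nad2 (-0.79) and the unnamed probe set 266481_at (-0.80) passed limma although they did not without it.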
